A study of Rattus norvegicus with 4 samples.

Results

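Postsynaptic scaffold and synaptic adhesion genes were followed in cultured rat cortical neurons with and without knockdown of Cmtr1. They comprised 36 genes, all of which were measured, out of 30245 genes tested on the arrays. A member was found by its gene name among the gene probes of the array, and where a gene had more than 1 probe, the probe with the highest mean signal stood for it. The members were 13 scaffold genes (Dlg1 to Dlg4, Dlgap1 to Dlgap4, Shank1 to Shank3, Homer2 and Homer3), 13 adhesion genes (Nlgn1 to Nlgn3, Lrrtm1 to Lrrtm3, Lrrc4, Lrrc4b, Lrrc4c, Lrfn1, Lrfn2, Cdh2 and Slitrk1) and 10 genes of spine actin, GTPase regulation and adaptors (Kalrn, Synpo, Baiap2, Sorbs2, Sipa1l1, Iqsec1, Iqsec2, Cnksr2, Tanc1 and Tanc2).

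The postsynaptic density is the protein sheet under the membrane of an excitatory synapse. Its upper layer is built from the Dlg proteins, membrane-associated guanylate kinases that hold glutamate receptors and adhesion proteins by their PDZ domains; Dlgap proteins link them to the deeper Shank and Homer proteins, which reach the actin of the spine. Adhesion proteins such as the neuroligins, the leucine-rich repeat proteins and N-cadherin span the cleft and bind partners on the axon, among them the neurexins and receptor-type tyrosine phosphatases.

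The neurons were prepared from cortices of Sprague Dawley rat embryos of stage E18.5, from both sexes per the labels. At day 2 in culture they received a lentivirus that carried a control shRNA (shCTL) or an shRNA directed at Cmtr1 (shCM1), and RNA was taken at day 7, so that both groups were infected cultures. CMTR1 is an enzyme that places a methyl group on the ribose of the nucleotide next to the mRNA cap, and the series asked what its loss changes in neuronal gene expression. Each group held 2 single-colour arrays, which the series' design assigns to 2 independent experiments, and the sample titles carry the prefix si where the shRNA field has sh. The sources used here do not say whether a culture came from 1 litter or from pooled embryos, nor do they give the sequence of either shRNA, and lower CMTR1 and other effects of the shRNA cannot be told apart. In such bulk RNA, fewer cells of a type and less RNA per cell cannot be told apart either.

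The probes are oligonucleotides of 60 bases, and probes of paralogs at matching stretches show how alike such sequences are. Of the 61 member probes, 60 had a position in the file, in build rn4 per the file headers, and 9 spanned an intron. The probes shown for Dlg2, Dlg3 and Dlg4 came from matching stretches of their transcripts. The Dlg3 probe gave the value of its gene, while the values of Dlg2 and Dlg4 below came from other, brighter probes that were not compared. Capitals mark bases identical to the Dlg3 probe, and in Dlg3 bases shared with both others.
Dlg2 (chr1:149274364-149274423, plus strand): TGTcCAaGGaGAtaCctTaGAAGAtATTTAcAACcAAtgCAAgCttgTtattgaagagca
Dlg3 (chrX:88826536-88827596, plus strand, across an intron): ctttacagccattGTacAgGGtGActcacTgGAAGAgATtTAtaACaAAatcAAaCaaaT
Dlg4 (chr10:56889685-56889744, plus strand): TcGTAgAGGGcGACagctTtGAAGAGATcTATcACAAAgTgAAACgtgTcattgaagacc
Over the aligned part, Dlg2 and Dlg3 were identical at 31 of 48 bases (64.6%), Dlg4 and Dlg3 at 34 of 49 (69.4%), and Dlg2 and Dlg4 at 39 of 59 (66.1%).
The probes for Dlgap2 and Dlgap4 were also placed at matching stretches, with capitals for bases identical between them.
Dlgap2 (chr16:79619696-79628365, minus strand, across an intron): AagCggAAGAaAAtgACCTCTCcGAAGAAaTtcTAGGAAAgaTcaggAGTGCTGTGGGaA
Dlgap4 (chr3:147167184-147173826, plus strand, across an intron): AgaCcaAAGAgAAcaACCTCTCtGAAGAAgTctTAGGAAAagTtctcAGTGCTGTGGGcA
They shared 42 of 60 bases (70.0%). Among all probes of different members the longest run of identical bases was 11, found for instance between Dlgap2 and Dlgap4 and between Nlgn2 and Dlg4.

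Baiap2, Lrrtm1 and Nlgn1 were the members that passed a test below, and the probes that gave their values are shown for that reason, those of Baiap2 and Nlgn1 by their first 30 bases.
Baiap2 (chr10:109413617-109413676, plus strand): cttgggttgttttctttcccacccgctcct
Lrrtm1 (chr4:111169069-111169128, plus strand): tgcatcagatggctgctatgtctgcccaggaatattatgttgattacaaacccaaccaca
Nlgn1 (chr2:111188173-111188232, minus strand): agcaattttgatagtttgtaagataacgca
The Baiap2 probe began at base 1711 of the transcript the file lists for it, the Lrrtm1 probe at base 2034 and the Nlgn1 probe at base 3530. A second Baiap2 probe, placed across an intron nearer the 5′ end (base 903), and a second Dlg3 probe, which the file lists by a transcript and not under the symbol Dlg3, are also used below.
Baiap2, second probe (chr10:109409118-109409322, plus strand): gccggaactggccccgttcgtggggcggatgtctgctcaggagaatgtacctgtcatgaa
Dlg3, second probe, first 30 bases (chrX:88829069-88829128, plus strand): agaagaaagtagactttaatgctgtaaatt

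Levels are log2 signals relative to the 75th percentile of the same array, and a difference is shCM1 minus shCTL with the standard error (SE) of the fit without a block (n = 2 arrays per group). The 75th percentile signal was 596.3 to 754.5, 84.0% to 90.4% of probes stood well above background, and no gene spot was saturated. Replicate 1 of both groups lay on slide 1 and replicate 2 of both on slide 2, so each slide gives a difference of its own. Cmtr1, the targeted gene, had levels of -1.43 and -1.86 in shCTL and -3.46 and -3.53 in shCM1. Its groups were far apart, with shCM1 at 27.7% of control (log2 difference -1.85, SE 0.22, slides -2.04 and -1.67). The limma adjusted p was 1.00 without a block; blocking on the slide gave 3.76e-07. Markers of neurons were bright, all 8 being well above background on all arrays.

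The members as a group stayed close to their control levels. All 36 were well above background on all 4 arrays, with differences from -0.36 (Baiap2, 77.7% of control) to 0.32 (Lrrtm2, 124.9% of control). Their median difference was -0.02, and -0.06 on slide 1 and 0.03 on slide 2, against 0.08, 0.09 and 0.06 over all genes. The members were bright, with a median at percentile 81.4 of all genes. The median difference of genes of like signal fell from 0.16 at Dlg1, the member at the lowest percentile (43.1), to -0.06 at Lrfn2, the member at the highest (93.5). Against the 200 non-member genes nearest to each member in signal, the typical median was -0.02, the value of the members themselves. Differences of 29 members lay within 1 SD of the median of such genes and 0 lay over 2 SD away. The members also varied little: the median absolute difference was 0.13, against 0.17 over all genes and 0.13 over genes of like signal.

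No member passed limma without a block, where 0% of all genes passed. At an unadjusted p under 0.05 that fit held 1 member, Baiap2, against 3% of all genes. With the slide as a block, 3 of 36 members fell, Baiap2, Lrrtm1 and Nlgn1, and 0 rose. That fit called 6.38% of all genes in either direction. Of all genes 2.93% fell and 3.45% rose in that fit, and of genes of like signal 5.75% fell, and the 3 members are 8.33% of theirs. The fit with the block borrows most of its error from other genes, through a variance prior with 17.2 degrees of freedom. After quantile normalization the adjusted p of this limma fit was 0.0999 for Baiap2, 0.161 for Lrrtm1 and 0.164 for Nlgn1, and 0 members passed; cyclic loess and the authors' table also left 0, and normexp left 2 (Baiap2 and Lrrtm1). An exact permutation test of 1 gene with 2 arrays against 2 cannot go below 0.333.

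Counting directions alone, 11 members (30.6%) were lower within both slides, against 22.6% of all genes and 35.8% of genes of like signal. Another 8 (22.2%) were higher within both slides, against 44% and 31.6%. The remaining 17 (47.2%) had opposite signs on the slides, against 33.4% of all genes and 32.6% of genes of like signal. None was 1.5-fold lower or higher within both slides, which 0.625% and 1.79% of all genes were. The shCM1 arrays lay below both shCTL arrays for 7 members (19.4%), against 10.1% of all genes and 17.3% of genes of like signal. They lay above both for 2 (5.56%), against 21.6% and 13.5%. For the remaining members the arrays of the groups overlapped.

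**Figure D1:**
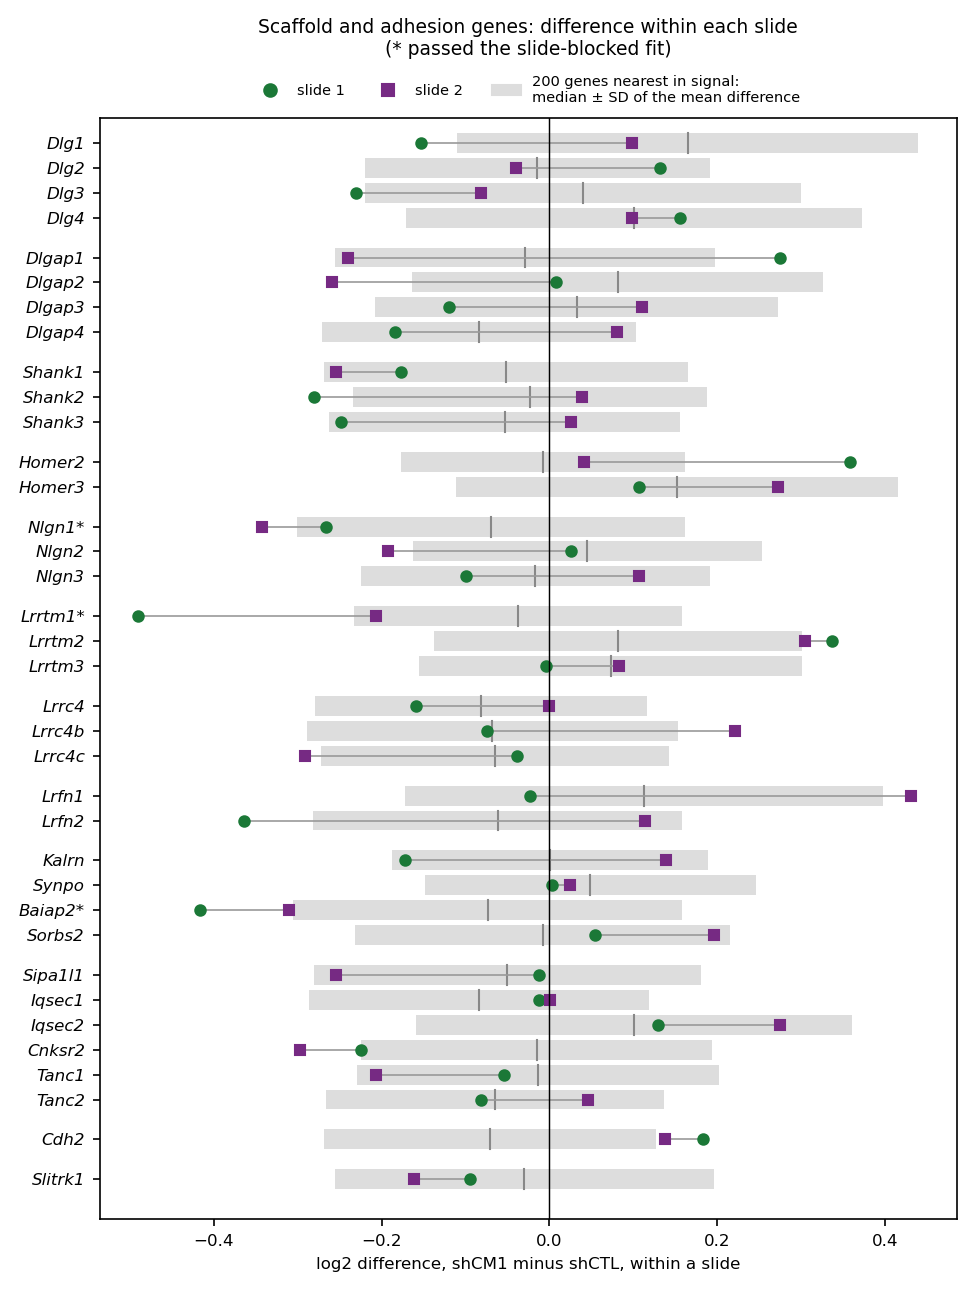
Log2 difference shCM1 minus shCTL of each of the 36 members on slide 1 (circles) and slide 2 (squares); the grey bar is the median ± SD of the mean difference of the 200 non-member genes nearest in signal, and an asterisk marks members that passed limma with the slide as a block. Baiap2, Lrrtm1 and Nlgn1 have both points left of zero, and 17 members have points on both sides of it.

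**Figure D2:**
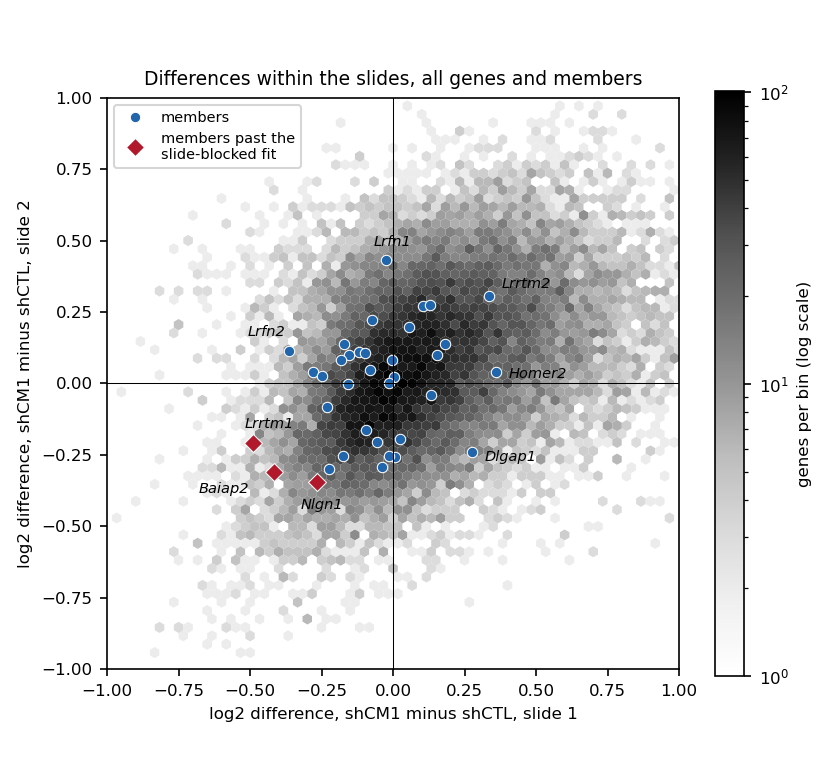
Log2 differences on slide 1 (x) and slide 2 (y) for all genes as grey bins on a log colour scale, with the 36 members as points; 1360 genes lie outside the axis limits of -1 and 1. The members sit in the middle of the cloud, with the 3 that passed the slide-blocked fit at its lower left.

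Of the 13 scaffold genes, none passed either fit. Dlg4, which encodes the most studied Dlg protein of the postsynaptic density, had levels of -2.08 and -2.30 in shCTL and -1.92 and -2.20 in shCM1. The groups overlapped, with a difference of 0.13 (SE 0.21, slides 0.16 and 0.10). In the fit without a block its difference was -0.01 when shCM1 replicate 1 was left out. Leaving out an array unbalances the slides between the groups, so the gap between the slides enters such values, here and below. After quantile normalization the difference of Dlg4 was 0.03. Dlg2 had a difference of 0.05, with 0.13 on slide 1 and -0.04 on slide 2. Dlg1, whose protein also serves receptor traffic outside the synapse, had -0.15 and 0.10. After quantile normalization Dlg1 was lower on both slides (-0.33 and -0.02). In the main scaling, Dlg3 was the Dlg gene that was lower on both slides, by -0.23 and -0.08. Its groups overlapped, with a limma adjusted p of 0.451 with the block.

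The Dlgap genes, whose proteins bind the guanylate kinase domain of Dlg proteins, had opposite signs on the slides. Dlgap1 was 0.28 on slide 1 and -0.24 on slide 2, and Dlgap2 was 0.01 and -0.26. Dlgap3 and Dlgap4 went the other way between the slides, with -0.12 and 0.11 for Dlgap3 and -0.18 and 0.08 for Dlgap4. The family's median was -0.03. Dlgap2 was close to zero on slide 1, and after quantile normalization it was lower on both slides (-0.11 and -0.33).

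The Shank genes encode the large proteins that join Dlgap to Homer. In the probes used, all 3 were lower on average, by -0.22 for Shank1, -0.12 for Shank2 and -0.11 for Shank3. Shank1 was lower on both slides. A second, dimmer Shank2 probe was at 0.05 (slides -0.03 and 0.13). Shank1 had levels of 2.28 and 1.98 in shCTL and 2.10 and 1.73 in shCM1. Each shCM1 array was below the shCTL array of its slide (-0.18 and -0.25), but the groups overlapped, and the limma adjusted p was 0.168 with the block (SE 0.20). Without shCM1 replicate 2 the difference was -0.03, and without shCTL replicate 1 it was -0.07, values that the gap between the slides enters. Shank2 had -0.28 and 0.04, and Shank3 -0.25 and 0.03, so that slide 2 held no drop for either. Of the 200 genes nearest to Shank1 in signal, 17.0% had a lower difference.

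The Homer genes, whose proteins bind Shank and metabotropic glutamate receptors, were both higher on both slides, though Homer3 was at -0.08 on slide 1 after quantile normalization. Homer2 had 0.36 on slide 1 and 0.04 on slide 2. Homer3 had levels of -3.21 and -2.52 in shCTL and -3.10 and -2.25 in shCM1. The 2 slides differed more than the groups did, and the difference was 0.19 (SE 0.38, slides 0.11 and 0.27). Without shCTL replicate 1 it was -0.16 and without shCM1 replicate 2 it was -0.24, values that the gap between the slides enters. Neither gene passed with the block, with limma adjusted p of 0.273 for Homer2 and 0.473 for Homer3.

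The adhesion genes held 2 of the 3 members that fell with the block. Nlgn1, the neuroligin of excitatory synapses, had levels of 2.78 and 3.01 in shCTL and 2.51 and 2.67 in shCM1. Both shCM1 arrays lay below both shCTL arrays. The difference was -0.30 (SE 0.16, slides -0.27 and -0.34), which is 81.0% of control, and the limma adjusted p was 0.0434 with the slide as a block. Without shCTL replicate 2 the difference was -0.19. Of its 200 neighbours in signal, 9.0% had a lower difference. Nlgn2, the neuroligin of inhibitory synapses, had 0.03 and -0.19, and Nlgn3, found at both kinds of synapse, had -0.10 and 0.11.

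Lrrtm proteins are postsynaptic ligands of neurexins at excitatory synapses, and their genes went different ways. Lrrtm1 had levels of 2.48 and 2.28 in shCTL and 1.99 and 2.07 in shCM1, with all shCM1 values below all shCTL values. Its difference was -0.35 (SE 0.16, slides -0.49 and -0.21), or 78.6% of control. The limma adjusted p was 0.0355 with the block. Lrrtm2 had levels of -1.48 and -2.04 in shCTL and -1.14 and -1.73 in shCM1. Each shCM1 array was above the shCTL array of its slide, by 0.34 and 0.30, and the groups overlapped because slide 1 was higher in both. The difference of Lrrtm2 was 0.32 (SE 0.30), with a limma adjusted p of 0.129 with the block. It was 0.03 without shCM1 replicate 1 and 0.04 without shCTL replicate 2, values that the gap between the slides enters. Lrrtm3 had -0.00 and 0.08. Whether Lrrtm1 and Lrrtm2 differ from each other in response was not tested.

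Lrrc4, Lrrc4b and Lrrc4c encode the netrin-G ligand proteins. Lrrc4c had -0.04 and -0.29, with both shCM1 arrays below both shCTL arrays, and a limma adjusted p of 0.285 with the block; slide 1 was at 0.02 after quantile normalization. Lrrc4 had -0.16 and -0.00, and Lrrc4b -0.07 and 0.22. The Lrfn genes, whose proteins bind Dlg proteins through their tails, were mixed: Lrfn1 had -0.02 and 0.43, and Lrfn2 had -0.36 and 0.11. These were among the largest gaps between slides in the list.

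Cdh2 encodes N-cadherin, the cadherin that joins both sides of the synapse. Its levels were 3.33 and 3.36 in shCTL and 3.52 and 3.49 in shCM1. The groups did not overlap, and the arrays of each group lay close together. The difference was 0.16 (SE 0.13, slides 0.18 and 0.14), or 112% of control, and the limma adjusted p was 0.264 with the block; after quantile normalization the difference was 0.24. Of its 200 neighbours in signal, 90.5% had a lower difference. Slitrk1, a ligand of receptor-type tyrosine phosphatases, had levels of 2.26 and 2.20 in shCTL and 2.16 and 2.04 in shCM1. Its groups did not overlap either, with a difference of -0.13 (SE 0.15, slides -0.09 and -0.16) and a limma adjusted p of 0.420 with the block. It was -0.07 without shCM1 replicate 2, and also -0.07 after quantile normalization.

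**Figure D3:**
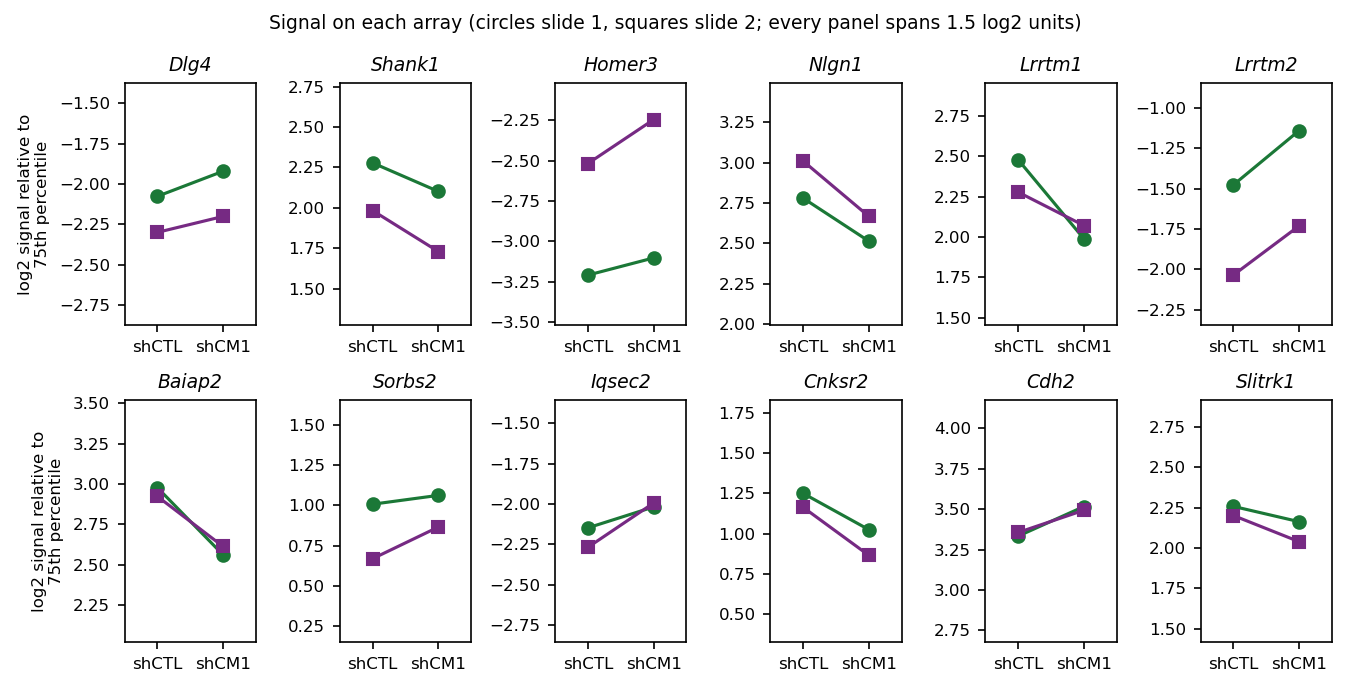
Log2 signal relative to the array's 75th percentile for the 12 members described array by array, with shCTL and shCM1 of a slide joined by a line (circles slide 1, squares slide 2); every panel spans 1.5 log2 units. For Baiap2, Lrrtm1, Nlgn1, Cnksr2 and Slitrk1 both shCM1 points lie below both shCTL points, and for Cdh2 and Iqsec2 above them. Homer3, Lrrtm2, Dlg4, Shank1 and Sorbs2 show slides further apart than the groups.

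Baiap2 had the lowest difference of all members. It encodes an I-BAR protein (IRSp53) that bends membrane and links Rac and Cdc42 to actin in the spine, and that binds Shank and Dlg proteins. Its levels were 2.98 and 2.92 in shCTL and 2.56 and 2.61 in shCM1. The arrays of each group lay close together and the groups did not overlap. The difference was -0.36 (SE 0.14, slides -0.42 and -0.31), with a limma adjusted p of 0.0175 with the block. Of its 200 neighbours in signal, 7.0% had a lower difference, so other genes as bright fell as far.

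The other genes tied to actin stayed near control. Kalrn, a guanine nucleotide exchange factor for Rac, had -0.17 and 0.14. Synpo, which marks the spine apparatus, had 0.00 and 0.02, among the smallest differences of the list. Sorbs2, an adaptor of actin and adhesion sites, had levels of 1.01 and 0.67 in shCTL and 1.06 and 0.87 in shCM1. Its groups overlapped, with a difference of 0.13 (SE 0.19, slides 0.05 and 0.20). Without shCTL replicate 2 the value was -0.04, which the gap between the slides enters.

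Among GTPase regulators and adaptors, Cnksr2 and Iqsec2 kept their groups apart without passing a fit. Cnksr2, a scaffold of Ras signalling, had levels of 1.25 and 1.16 in shCTL and 1.03 and 0.87 in shCM1. All shCM1 values lay below shCTL, with a difference of -0.26 (SE 0.16, slides -0.22 and -0.30) and a limma adjusted p of 0.117 with the block. Iqsec2, an exchange factor for Arf6, had levels of -2.15 and -2.27 in shCTL and -2.02 and -1.99 in shCM1. All shCM1 values lay above shCTL, with a difference of 0.20 (SE 0.18, slides 0.13 and 0.27) and a limma adjusted p of 0.387 with the block. In the other scalings (quantile, cyclic loess, normexp and the authors' table) its difference was 0.10 to 0.11. Its paralog Iqsec1 was at control, with -0.01 and 0.00. Sipa1l1, a Rap GTPase activating protein of the spine, had -0.01 and -0.25, with both shCM1 arrays below both shCTL arrays, though slide 1 was at 0.02 after quantile normalization. Tanc1 and Tanc2, large adaptors that bind Dlg proteins, had -0.05 and -0.21, and -0.08 and 0.05.

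Several members had more than 1 probe, and the probes of a gene are often listed under different transcripts. Of 18 members with over 1 measured probe, 12 had the same sign in all probes, 7 lower and 5 higher. All probes were lower on both slides for Baiap2, Dlg3 and Lrrc4c, and higher on both for Iqsec2 and Sorbs2. In a limma fit over all 36696 probes with the slide as a block, 5 of 60 member probes fell, against 2.69% of all probes, and 0 rose, against 3.2%. The median range over the probes of a gene was 0.13.

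The 3 probes of Nlgn1 were all lower on average. A probe that began at base 4261 of another listed transcript had a difference of -0.41 (slides -0.46 and -0.36, limma adjusted p = 0.0211 over all probes with the block). The probe used for the gene had an adjusted p of 0.0499 in that limma fit. A probe at base 53 of that transcript, near its 5′ end, had -0.24, with 0.17 on slide 1 and -0.65 on slide 2 (limma adjusted p = 0.395). For Baiap2 the second probe had levels of -0.54 and -0.80 in shCTL and -1.04 and -0.86 in shCM1. Its difference of -0.28 came mostly from slide 1 (-0.50, against -0.07 on slide 2), and the limma adjusted p was 0.185.

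For Dlg3 the second probe, brighter than the one named Dlg3 in the file, had levels of 1.11 and 0.95 in shCTL and 0.73 and 0.65 in shCM1. Its groups did not overlap, and its difference of -0.34 (slides -0.38 and -0.30) stood beside -0.16 for the probe used, with a limma adjusted p of 0.0508 over all probes with the block. A second Lrrc4c probe had -0.33 (slides -0.30 and -0.37, limma adjusted p = 0.0473), against -0.16 for the probe used. Probes of Cnksr2 disagreed in sign on both slides, with -0.26 for the probe used (chrX:58430530-58430589, plus strand, rn4) and 0.16 for a probe listed under another transcript and lying 3′ of it (chrX:58437250-58437309; slides 0.14 and 0.18), the widest range of any member at 0.42. The second Cnksr2 probe was much dimmer, with a mean log2 signal of 6.56 against 10.49 for the probe used. Genes of like signal to Dlg1 (6.63) had a median difference of 0.16, the value of that probe. Lrrc4 probes also disagreed, at -0.08 and 0.22, as did those of Shank2, at -0.12 and 0.05. Probes of Kalrn, Nlgn3 and Tanc2 differed in sign too. A further Dlgap1 probe was not well above background on any array.

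**Figure D4:**
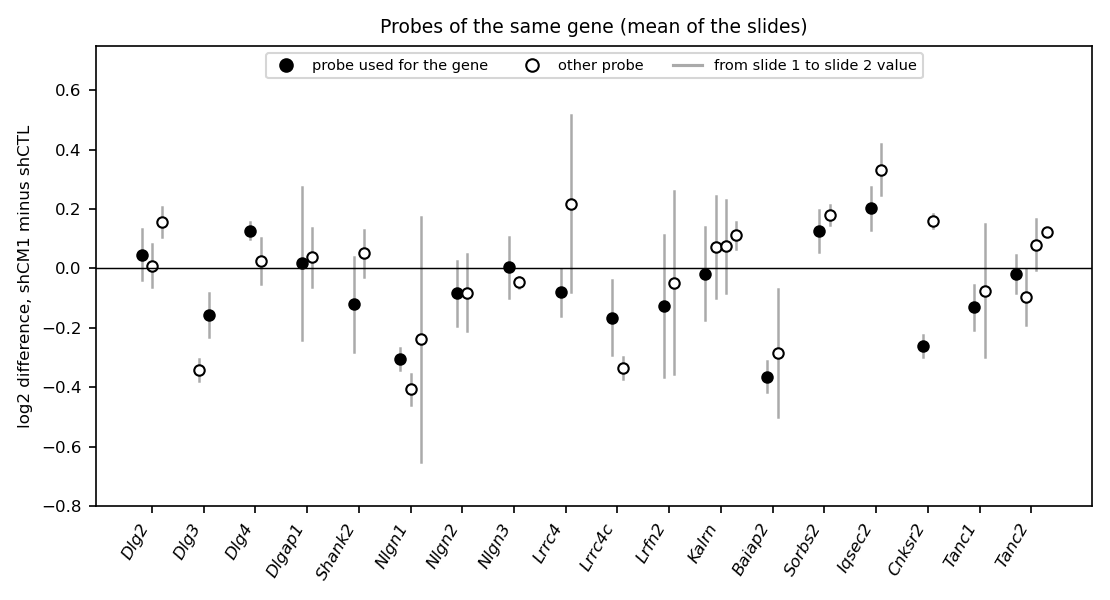
Mean log2 difference shCM1 minus shCTL for each measured probe of the 18 members with over 1 probe, ordered from the highest to the lowest mean signal; filled points are the probes used for the gene, and vertical lines run from the slide 1 to the slide 2 value. All Nlgn1, Baiap2, Dlg3 and Lrrc4c points lie below zero, and the Cnksr2 points lie on opposite sides of it.

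CMTR1 acts on the first nucleotide of a transcript, so the annotated start bases of the members were read. A RefSeq table of assembly GRCr8 held 31 start windows for 28 members. The annotated first base was G in 13 windows (41.9%, against 30.5% of 33469 windows of all genes), A in 8 (25.8% against 28.9%), C in 5 (16.1% against 24.1%) and T in 5 (16.1% against 16.5%). Of the members that fell, Lrrtm1 had no start window there. The windows of the others, Baiap2 and Nlgn1, are shown with the start base in capitals.
Baiap2 start: gttgctgcagttgtcGcctttctcaccgac
Nlgn1 start: gaaacaagaattaccCagttccagaggttg
They start with different bases, and an annotated start need not be the one used in these neurons.

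Genes that work with the members but are not among them were read from 2 further lists. Of 17 presynaptic partners, all measured, 0 passed limma with the block, and the median was 0.01. On both slides 5 were lower and 3 higher, against 22.6% and 44% of all genes. These partners were bright, with a median at percentile 92.3. Of genes of like signal to Lrrc4c (percentile 92.5), 53% were lower and 20% higher on both slides. The 2 with the smallest p were Adgrl2 at -0.16 (SE 0.18) and Adgrl3 at -0.15 (SE 0.17), latrophilins that bind teneurins and Flrt proteins. The other list held 54 further postsynaptic scaffold, adhesion and associated genes, and was chosen with earlier results of these data known. Of these 52 were measured, with a median of 0.03. With the block 4 fell and 0 rose, against 2.93% and 3.45% of all genes. Those that fell were Ptk2b (a calcium-dependent tyrosine kinase, log2 difference -0.98, SE 0.18), Lin7b (a PDZ partner of Dlg proteins, -0.52, SE 0.19), Cyfip1 (a subunit of the WAVE actin regulator, -0.42, SE 0.15) and Cttn (cortactin, an actin branch binder, -0.35, SE 0.13). After quantile normalization 2 of this list fell with the block. None of these 4 passed without the block, where 0% of all genes passed.

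Marker genes of the cells such cultures can hold were read beside the members. Of all genes 22.6% were lower and 44% higher on both slides, and 2.93% fell and 3.45% rose with the block. These directions vary with signal. Of genes of like signal to Shank3 (percentile 90.9) 49% were lower on both slides, and to Dlg1 (percentile 43.1) 58% were higher on both. The median percentile was 90.9 for the general neuron markers and 30.5 for the microglia markers. Of 8 general neuron markers 6 were lower on both slides and 0 were higher on both. Their median difference was -0.12, and Tubb3 was the 1 that fell with the block (log2 difference -0.37). With the block and cyclic loess 0 of these markers fell. Their summed signal relative to the 75th percentile was 216.0 to 281.0 in shCTL and 194.1 to 260.7 in shCM1. Such sums add linear signals, so the brightest genes weigh most, here Stmn2 (levels of 7.41 and 6.91 in shCTL). Of 7 excitatory neuron markers 3 fell with the block and 0 rose, with a median of -0.44 on slide 1 and 0.01 on slide 2, and their sum was 28.3 to 30.4 in shCTL and 24.1 to 25.1 in shCM1. Of 7 inhibitory neuron markers 4 rose (3 after quantile normalization) and 0 fell, with a median of 0.44. Their sum was 17.9 to 24.9 in shCTL and 23.0 to 31.2 in shCM1. All 7 measured microglia markers of 8 listed were higher on both slides, 2 of them past the blocked fit, with sums of 0.715 to 0.776 in shCTL and 1.08 to 1.40 in shCM1. Itgam did not pass the filter on dim probes, and Cx3cr1 and Tmem119 were not well above background on 1 array. Of 7 fibroblast and vessel markers 3 rose (1 after quantile normalization), with sums of 1.63 to 1.88 in shCTL and 1.96 to 2.47 in shCM1. Of 6 astrocyte markers 0 passed with the block (median -0.07). Their sum was 108.5 in shCTL and 117.7 in shCM1 on slide 1, and 113.4 and 113.8 on slide 2. On both slides 3 of these markers were lower and 1 was higher, and the brightest, Slc1a3 (log2 difference 0.13), weighs most in the sum. Of 7 oligodendrocyte lineage markers 1 fell and 2 rose (0 and 0 after quantile normalization). Their sums were 49.3 to 55.3 in shCTL and 44.3 to 54.1 in shCM1. Of 4 progenitor markers 1 fell and 1 rose (0 and 1 after quantile normalization). The progenitor sum was 29.7 in shCTL and 30.1 in shCM1 on slide 1, and 25.3 and 36.5 on slide 2. The median of the excitatory list was -0.22, and -0.04 with normexp. The medians of the microglia and vessel lists were 0.70 and 0.56, and 0.28 and 0.21 with normexp. The part of these shifts in the differences of Baiap2, Lrrtm1 and Nlgn1 was not tested.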

How the data were processed

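Single-colour Agilent arrays of 4 cultures were used, 2 per group. The authors' deposited scanner files hold linear intensity values, made per the file headers by version 10.7.3.1 of Agilent Feature Extraction, already background-corrected and not normalized between arrays. The authors' value table, also deposited as intensity values, correlated at 0.9998 or above with its own arrays and served only as an alternative; how it was made is not stated by the sources used here.

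Outlier spots (86 to 98 per array) were left out, spots of a probe averaged, log2 taken and the array's 75th percentile subtracted. A probe had to stand well above background on 2 or more of 4 arrays (36696 probes, 30245 genes kept). Genes other than members were named by accession or symbol through a RefSeq table of assembly GRCr8. Lrrtm1 was matched without regard to letter case.

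Differences were tested in R 4.3.3 with limma 3.58.1 (lmFit, eBayes with an intensity trend, two-sided), without and with the slide as a block, with Benjamini-Hochberg adjustment over all genes and a threshold of 0.05. Replicate number, slide and scan are the same split per the file headers; deviations of same-numbered arrays correlated at 0.713, and the leading principal component (65.3% of variance) separated the slides. With 2 pairs this and the shared slide are the grounds for giving the block. Without a block the p-values rest on the spread between these cultures and on a variance prior from all genes (3.38 degrees of freedom). With the block they rest mostly on such a prior (17.2 degrees of freedom), more than on a gene's own spread between cultures. The script was tested on simulated data.

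The members and lists were chosen with earlier results of these data known. Members past either fit, and up to 6 per direction with the largest smaller-of-2 slide difference of the same sign, were described array by array; partner genes were named by passing the blocked fit, otherwise as the 2 with the smallest p. Alternatives were other normalizations and background correction, other filters, the mean of probes, no trend, the block, and leaving out each array without a block. The fit over all probes and the values of all genes under each scaling were added after seeing the data.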

Additional observations from a re-analysis of the deposited data

How the results depend on the processing

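Limma without a block called 0 of 30245 genes (908 at an unadjusted p under 0.05), and 0 to 1 when each array was left out in turn. With the slide, which is the replicate number, as a block it called 1929 genes (887 lower, 1042 higher). That count was 927 (567 and 360) with quantile normalization, 699 (449 and 250) with cyclic loess, 1370 (777 and 593) with normexp, 674 (431 and 243) in the authors' table, 359 without the filter on dim probes, 1897 with probes well above background on all 4 arrays and 1355 with the mean of all probes. Leaving the trend out of the blocked fit gave 0 calls and 5070 genes at an unadjusted p under 0.05. Of the members, 3 were called with the block, 2 with the block and normexp, 3 with the block and all 4 arrays, and 0 in the other gene-level settings run; in the fit over all probes the probes used for Baiap2, Lrrtm1 and Nlgn1 also passed (limma adjusted p = 0.0226, 0.0433 and 0.0499). Cmtr1 stayed at -1.85 with the block (limma adjusted p = 3.76e-07), was -1.22 with normexp, and ranged from -2.07 to -1.64 with each array left out. The members' median was -0.04 to -0.01 under the other scalings and filters and -0.07 to 0.02 with each array left out, and 9 to 13 members were lower within both slides. Within both slides and all 5 scalings, 8 members were lower and 6 higher. The median of all genes moved from 0.08 to 0.01 with quantile normalization. The cause of these changes was not tested. Signal over background limits dim probes, and 2 arrays per group limit every p.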
